A study of Mus musculus with 3 samples.

Results

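The proteins of elastic fibres and the matricellular proteins, which are secreted regulators of contact between cells and matrix, were followed here as 41 genes chosen by name. They are 41 of the 52550 genes in the deposited table, and all 41 were found in it. RNA came from cells of the superior cervical ganglion, a sympathetic ganglion of the neck, of male LepRCRE::Ai32 mice at 10 weeks of age. In this line Cre recombinase is driven from the leptin receptor locus and switches on a yellow fluorescent reporter, so a cell that once used that locus stays marked. Live fluorescent cells, labelled LepR+, were sorted and sequenced as 3 Smart-Seq2 libraries, full-length cDNA copied from RNA and amplified by PCR, and the labels call them biological replicates of 1 group. No control group, other tissue or unsorted ganglion was analysed here, so levels were set against a fixed level, against related genes in the same library and against all other genes. The number of cells or animals behind each library is not stated in the labels.

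Elastic fibres are built in steps. Fibrillins form microfibrils, fibulins and microfibril-associated proteins help load tropoelastin onto them, and lysyl oxidases crosslink it into a stretchable core. Latent TGF-beta binding proteins sit on the same microfibrils and hold the growth factor TGF-beta in an inactive store. Matricellular proteins such as SPARC, the thrombospondins, tenascin C, periostin and osteopontin add little mechanical strength and act on cells through integrins and other receptors. In peripheral nerves and ganglia, such matrix is laid down by the fibroblast-like and perineurial cells of the sheaths and also by glia.

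Several of these proteins bind cells through the tripeptide Arg-Gly-Asp, which integrins recognise. Its codons are shown because some members hold them and integrin genes are among the receptors measured. Sparcl1, Matn2, Sparc and Efemp1, the members with the highest mean levels, hold none. The search covered 3 codons in frame and on the coding strand, CGN, AGA or AGG followed by GGN followed by GAT or GAC, in the longest coding sequence of each gene in GENCODE M21 (build GRCm38). It found them in 13 of the 41 members (31.7%), against 1565 of 21583 genes with a coding sequence (7.25%). The members have longer coding sequences, with a median of 2274 bases against 1188 bases, and among genes of 1383 to 3516 bases, which spans the first to the third quartile of the members, 725 of 7506 (9.66%) hold such codons. The 31.7% covers members of every length, also those with codons outside that band, such as Fbn1 (8619 bases) and Mfap5 (492 bases). It is therefore not matched for length with the 9.66%. A match describes the letters and does not show that the site binds. Each sequence below is read 5′ to 3′ from the spliced coding strand, with the 3 codons in capitals. The adhesive glycoproteins osteopontin, vitronectin and fibronectin come first, then a fibulin, microfibril proteins and a pair of thrombospondins.
Spp1: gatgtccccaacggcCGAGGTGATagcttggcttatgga
Vtn: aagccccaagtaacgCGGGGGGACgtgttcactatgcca
Fn1: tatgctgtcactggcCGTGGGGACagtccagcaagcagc
Fbln5: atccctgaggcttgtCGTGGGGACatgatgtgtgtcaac
Mfap5: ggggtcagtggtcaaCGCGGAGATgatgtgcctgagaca
Fbn1: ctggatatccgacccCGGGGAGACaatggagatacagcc
Thbs1: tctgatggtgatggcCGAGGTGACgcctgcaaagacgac
Thbs2: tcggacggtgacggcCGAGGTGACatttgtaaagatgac
The codons start at codon 145 of Spp1, codon 64 of Vtn, codon 1614 of Fn1 and codon 67 of Fbln5. In the thrombospondins they start at codon 927 of Thbs1 and codon 928 of Thbs2, in closely similar surroundings. Fn1 holds a further match, Thbs4 and Fbn2 hold 2 each, and Mfap4 and Emilin1 are also among the 13.

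Replicates 1, 2 and 3 held 8239050, 8038895 and 7721999 recovered reads and 17833, 18429 and 18960 genes with at least 1 read. Values are in TPM (transcripts per 1000000), the share of a library taken by a gene per base of its exons, in which 1 read on a gene of 1 kb is worth from 0.391 to 0.418 TPM. Lepr, the gene of the label, stood at 363, 32.1 and 54.0 TPM, so it had reads in every library and was highest in replicate 1. Of 9 perineurial markers 3 were called above 1 TPM and 1 below (the test is given in the next paragraph). Over all genes tested the shares were 16.3% above and 14.1% below. The perineurial markers were led by Cldn1 at 216, 246 and 220.5 TPM and Sfrp5 at 88.4, 107 and 78.3 TPM, and Krt19 had no read. Of 8 fibroblast markers 5 were called above 1 TPM and 1 below. They were led by Dcn (3166, 4433 and 3774 TPM) and Lum (949, 1331 and 2574 TPM), with no read of Pi16. Markers of satellite glia and Schwann cells were also high, with 8 of 9 called above 1 TPM and a summed level of 23272, 19633 and 20708 TPM, led by Fabp7 and Cdh19. The summed levels were 298, 330.4 and 252 TPM for 6 endothelial markers, led by Emcn and Tek, and 443, 189 and 58.5 TPM for 6 mural markers, led by Rgs5 and Acta2. They were 1.40, 65.6 and 26.2 TPM for 6 macrophage markers, led by Cd68 and Lyz2. The 5 neuronal markers reported here, which are not the whole neuronal list and so do not bound its level, summed to 0.937, 56.8 and 1.31 TPM, led by Tubb3 and Prph and with no read of Npy. In such a bulk sample, fewer cells of a type and less RNA per cell cannot be told apart, and the part of each cell type in the levels given here was not tested.

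RNA of most SPARC family members, of Matn2 and Spp1 and of several fibulins was abundant, while that of elastin, the lysyl oxidases and most microfibril-associated proteins was low or was carried by 1 library. Of the 41 members, 39 had a read in at least 1 library and were tested, and 34 had a read in every library. To ask which genes stood clear of 1 TPM, limma's moderated test (two-sided) compared each gene's mean log2(TPM + 1) with that level, with Benjamini-Hochberg adjustment over all 27402 genes with a read and a threshold of 0.05. It called 19 of the 39 tested members above 1 TPM, against a background of 16.3% of all genes tested, and 1 below (Mfap4), against 14.1%. The median of the members' mean levels was 26.1 TPM over those tested and 23.5 TPM over all 41, against 1.15 TPM over all genes tested. In 24 members every library held at least 1 TPM, against 23.7% of genes tested, and in 18 every library held at least 10 TPM, against 13.4%. These calls rest on 3 libraries. Without replicate 3 the test called 10 members above 1 TPM, beside 2435 of all 27402 genes. Without replicate 1 or without replicate 2 it called 0 members, as it then did for all 27402 genes. In those fits 17 and 18 members lay above 1 TPM at an unadjusted p under 0.05. The share of all genes at that unadjusted p was not counted.

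**Figure D1:**
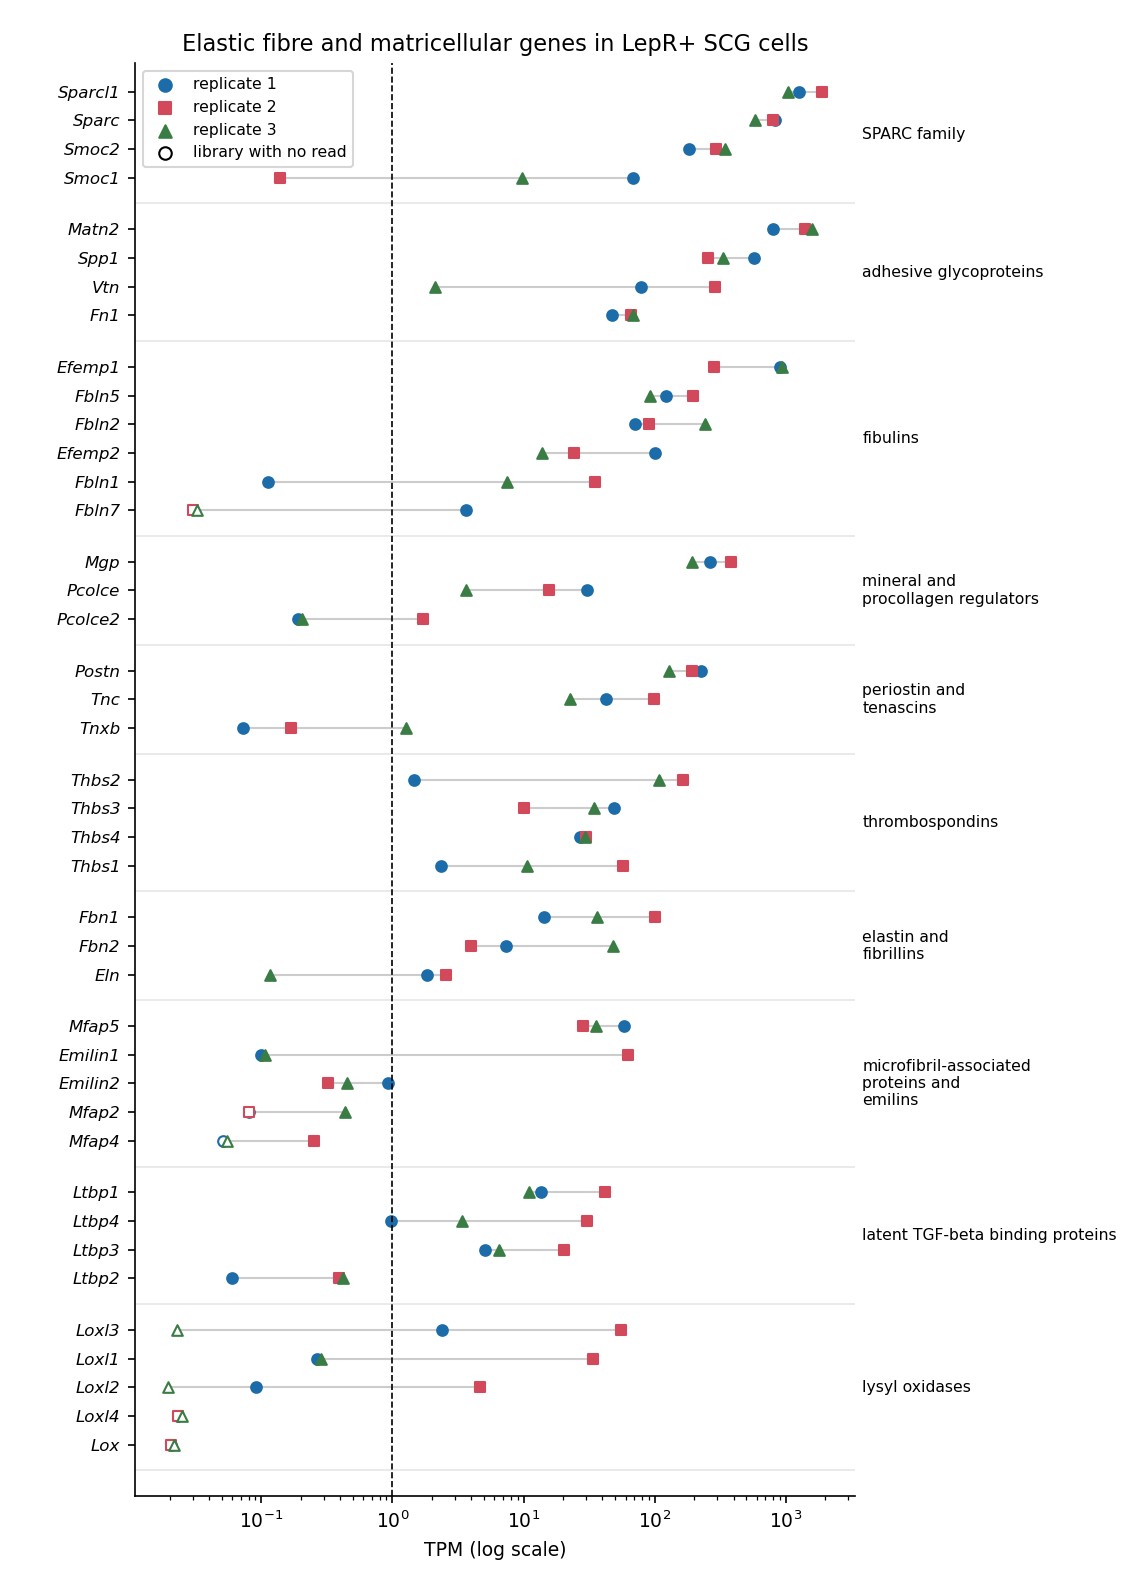
The level of each of the 41 members in the 3 libraries, in TPM on a log axis, with members grouped by role and ordered by mean within each group. Open symbols mark libraries with no read, drawn at the value left by the 0.25 read the authors' values add, the dashed line marks 1 TPM, and the reader should see that Sparcl1, Matn2, Sparc and Efemp1 lie far to the right while Emilin1, Loxl1 and Loxl3 stretch across the panel.

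Together the members took 5799 TPM in replicate 1, 6973 TPM in replicate 2 and 5935 TPM in replicate 3, or 0.624% ± 0.064 of the library (SD, n = 3). A few genes made up most of this. The 4 highest by mean (Sparcl1, Matn2, Sparc and Efemp1) held 65.6%, 62.8% and 69.8% of the members' level, and the 10 highest held 90.4%, 83.1% and 92.3%. By role, the SPARC family came first in replicates 1 and 2 with 2339 and 3000 TPM. In replicate 3 its 1979 TPM stood beside 1993 TPM of the adhesive glycoproteins, the next group. The fibulins followed with 1207, 628 and 1286 TPM. Lowest by mean, the 5 lysyl oxidases summed to 2.80, 93.6 and 0.374 TPM and the 4 latent TGF-beta binding proteins to 19.6, 93.0 and 21.4 TPM.

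**Figure D2:**
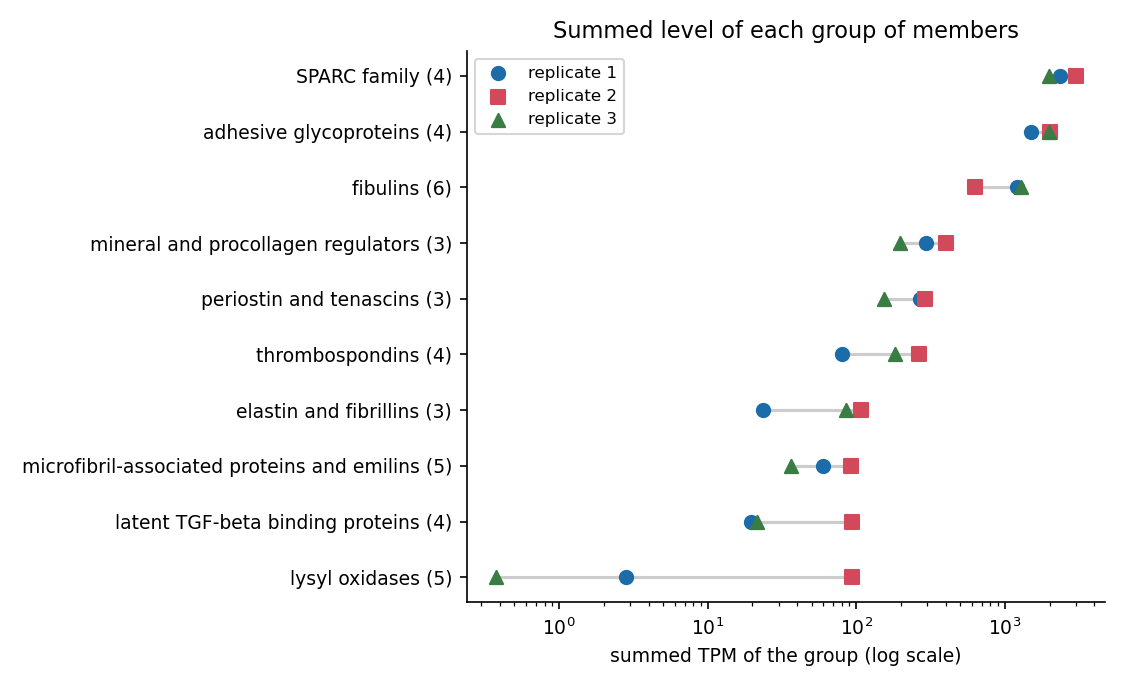
The summed level of each group of members in the 3 libraries, in TPM on a log axis, with the number of members in brackets. The SPARC family and the adhesive glycoproteins lie at or above 1506 TPM in every library, and the lysyl oxidases range from 0.374 TPM to 93.6 TPM.

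Of the 4 SPARC family genes, Sparcl1, Sparc and Smoc2 were called above 1 TPM and Smoc1 was not. Sparcl1 encodes hevin, a secreted relative of SPARC that promotes synapse formation in the mouse brain, and lies at chr5:104079111-104113733 on the minus strand. It had 1265, 1901 and 1039 TPM in replicates 1 to 3, a mean of 1402 ± 447 (SD, n = 3), and was the highest member on average (adjusted p = 0.00337). All 3 values lay within 1.83-fold of each other. Sparc encodes the collagen-binding matricellular protein that gives the family its name, and its values of 824, 803 and 588 TPM lay within 1.40-fold (adjusted p = 0.00337). Smoc2 encodes a calcium-binding matrix protein with a SPARC-like domain and stood at 182, 296 and 342 TPM (adjusted p = 0.00357). Its relative Smoc1 was uneven, with 68.4 TPM from 611 reads in replicate 1, 1 read in replicate 2 and 9.71 TPM from 81 reads in replicate 3. The library with the lowest Smoc2 was thus the one with the highest Smoc1.

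Of the 4 adhesive glycoproteins, Matn2, Spp1 and Fn1 were called above 1 TPM. Matn2 encodes a matrilin, an adaptor that forms filamentous networks in the matrix. Its 806, 1393 and 1589 TPM made it the second highest member on average and the highest in replicate 3 (adjusted p = 0.00337). Spp1 encodes osteopontin, a phosphorylated integrin ligand with the Arg-Gly-Asp codons printed above, and had 574, 255 and 333 TPM (adjusted p = 0.00379). Gm42793, a gene model still to be tested by experiment, covers 18.75% of its exon length on the same strand, so its reads could in part belong there. Fn1 encodes fibronectin, the fibril-forming ligand of many integrins, and its 47.0, 66.1 and 68.8 TPM were among the steadiest of the members (adjusted p = 0.00383). Vtn encodes vitronectin, an adhesive glycoprotein best known from plasma. It had 78.9, 291 and 2.11 TPM, from 409, 1514 and 10 reads. Replicates 1 and 2 were therefore well above replicate 3, and the mean of 124 ± 149.9 TPM (SD, n = 3) was not called (adjusted p = 0.117).

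Sparcl1 and Spp1 lie on the same chromosome, with Spp1 at chr5:104435118-104441050 on the plus strand, and were both abundant. Smoc2 (chr17:14279506-14404790) and Thbs2 (chr17:14665500-14694235) are also close on their chromosome, on opposite strands. That pair differed, with Smoc2 high in every library and Thbs2 at 1.47 TPM in replicate 1. The coordinates are those of GENCODE M21 on GRCm38, and for Matn2, Smoc2, Thbs2, Emilin2, Ltbp1, Fbn2, Efemp2 and Ltbp3 the deposited values rest on gene models of another length.

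The fibulins are secreted adaptors with calcium-binding EGF-like repeats, and 4 of the 6 (Efemp1, Fbln5, Fbln2 and Efemp2) were called above 1 TPM. Efemp1, at chr11:28853204-28926743, encodes a short fibulin found in basement membranes and elastic tissue. Its 908 and 929 TPM in replicates 1 and 3 stood over 282 TPM in replicate 2, and the mean was 706.5 ± 367 TPM (SD, n = 3, adjusted p = 0.0057). Fbln5 binds tropoelastin and integrins and is needed for elastic fibres in the mouse, and it had 123, 196 and 92.0 TPM (adjusted p = 0.00445). Fbln2, a fibronectin- and basement membrane-binding fibulin, had 71.2, 90.2 and 243 TPM and was highest in replicate 3 (adjusted p = 0.00979). Efemp2 brings lysyl oxidase to tropoelastin, and its 101, 24.1 and 13.9 TPM were called by a small margin (adjusted p = 0.0485). Fbln1, a long fibulin of basement membranes, had 1 read in replicate 1, 34.8 TPM in replicate 2 and 7.49 TPM in replicate 3 (adjusted p = 0.303). Fbln7, a cell-adhesive fibulin, had 30 reads (3.67 TPM) in replicate 1 and no read in the other two.

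The core of the elastic fibre was low. Eln encodes tropoelastin, the precursor of the elastic core, and was represented by 38, 53 and 2 reads on 8098 bases of exon. That gives 1.85, 2.57 and 0.116 TPM, which limma placed neither above nor below 1 TPM (adjusted p = 0.773). Fbn1, the main fibrillin of microfibrils and the gene of Marfan syndrome in humans, stood at 14.2, 100.4 and 36.2 TPM, higher than Eln in every library (adjusted p = 0.0431 against 1 TPM). Gm9913 covers 20.1% of the exon length of Fbn1 on the opposite strand, and no source used here says whether the counting used strand. Fbn2, the fibrillin best known from development, had 7.29, 3.96 and 48.3 TPM and was not called (adjusted p = 0.0882). Replicate 3 was thus the only library in which Fbn2 exceeded Fbn1.

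Among the 5 microfibril-associated proteins and emilins, only Mfap5 was called above 1 TPM. It encodes a small glycoprotein that binds fibrillin and carries Arg-Gly-Asp codons, and it had 58.3, 28.4 and 35.5 TPM (adjusted p = 0.00716). Its close relative Mfap2 had a single read, in replicate 3. Mfap4, a fibrinogen-related protein of elastic fibres, also had a single read, in replicate 2, and was the member called below 1 TPM (adjusted p = 0.0489). That call was lost with the level at 0.5 TPM and when mitochondrially encoded genes were left out, as well as without replicate 1, without replicate 2 and without replicate 3, and a filter on mean level removes Mfap4 from the test. Emilin1, which lies between elastin and microfibrils, had 795 reads (62.9 TPM) in replicate 2 and 1 read in each of the other two. Emilin2 had 9, 3 and 4 reads, so no library reached 1 TPM of it.

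The latent TGF-beta binding proteins were moderate and highest in replicate 2 wherever they had more than a few reads. Ltbp1, which tethers latent TGF-beta to the matrix, had 13.5, 42.0 and 11.1 TPM (adjusted p = 0.0395). Ltbp3, which binds the same complex, had 5.07, 20.3 and 6.54 TPM (adjusted p = 0.0490) and lost its call with the level at 0.5 TPM, with the filter on mean level, with a mean-variance trend and without mitochondrially encoded genes. Ltbp4, which works with fibulins in elastic fibre assembly, had 0.984, 30.4 and 3.38 TPM and was not called (adjusted p = 0.25). Ltbp2, the member of this family that does not bind latent TGF-beta, had 1, 8 and 8 reads.

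Of the 5 lysyl oxidases, the copper enzymes that crosslink elastin and collagen, 3 had a read and were tested. None of these was called above or below 1 TPM. Lox and Loxl4 had no read in any library, and 3 reads would have been worth 0.245 to 0.262 TPM for Lox and 0.278 to 0.297 TPM for Loxl4. Loxl3 had 28 reads (2.40 TPM) in replicate 1, 648 reads (55.0 TPM) in replicate 2 and none in replicate 3. Loxl1, which is needed to maintain elastic fibres in the mouse, had 286 reads (33.9 TPM) in replicate 2 and 2 reads in each of the other two. Loxl2 had 64 reads (4.64 TPM) in replicate 2, 1 read in replicate 1 and none in replicate 3. Each of the 3 lysyl oxidases with reads was thus carried by replicate 2. Htra2 covers 11.6% of the exon length of Loxl3 on the opposite strand.

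Thrombospondins are multimeric glycoproteins that bind integrins and other receptors on cells, and 2 of the 4 were called above 1 TPM. Thbs4, a pentameric form, had the closest values of all members tested, with 27.0, 30.0 and 29.6 TPM, a mean of 28.9 ± 1.6 (SD, n = 3, adjusted p = 0.00376). Thbs3, the other pentameric form, had 49.0, 10.1 and 34.7 TPM (adjusted p = 0.0394). The trimeric forms, which inhibit growth of blood vessels, were uneven between libraries. Thbs2 had 1.47, 165 and 108 TPM from 22, 2497 and 1537 reads (adjusted p = 0.127). Thbs1, known to activate latent TGF-beta, had 2.34, 57.5 and 10.6 TPM from 36, 894 and 154 reads (adjusted p = 0.117). Both trimeric forms were lowest in replicate 1 and highest in replicate 2.

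Postn encodes periostin, a matricellular integrin ligand that aids collagen crosslinking, and had 227, 191 and 129.5 TPM (adjusted p = 0.00356). Tnc encodes tenascin C, a large anti-adhesive glycoprotein of development and repair, and had 42.5, 98.3 and 22.8 TPM (adjusted p = 0.0204). Its relative Tnxb, a collagen-associated tenascin whose loss causes a form of Ehlers-Danlos syndrome in humans, had 2, 5 and 37 reads, with 1.27 TPM in replicate 3. Mgp encodes matrix Gla protein, a vitamin K-dependent inhibitor of calcification. Its 263, 383 and 194 TPM made it the highest of the 3 mineral and procollagen regulators (adjusted p = 0.00359). Pcolce, which enhances the cleavage of procollagen by Bmp1, had 30.3, 15.8 and 3.63 TPM and was not called (adjusted p = 0.0588). Pcolce2, of the same function, had 2, 20 and 2 reads.

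The spread between libraries ran from steady to uneven members. Among the 30 members with a mean of at least 10 TPM, the highest library exceeded the lowest by more than 10-fold in 10 (33.3%), against 49.3% of the 8435 genes with such a mean. The median ratio of highest to lowest was 4.15 for the members and 9.38 for all genes. These sets were not matched for level, and the 10 members with the highest means all lay within 3.42-fold. The 10 uneven members were Vtn, Thbs2, Smoc1, Thbs1, Emilin1, Fbn2, Loxl3, Fbln1, Ltbp4 and Loxl1. Replicate 2 was the highest library for 16 of the 30 members, replicate 1 for 8 and replicate 3 for 6, against 35.2%, 34.1% and 30.6% of all genes with such a mean. The lowest library was replicate 1 for 13 members, replicate 3 for 11 and replicate 2 for 6. Of the summed marker levels, the perineurial (434, 646 and 430.3 TPM), endothelial, neuronal and macrophage ones were also highest in replicate 2, and the glial, fibroblast and mural ones were not. The endothelial sums were close (298, 330.4 and 252 TPM), and Emcn, the highest of these markers, was highest in replicate 1 (237, 135 and 146 TPM). The neuronal sum of replicate 2 was mostly Tubb3 (50.9 TPM there, with no read in replicate 1 and 1 read in replicate 3). The macrophage sum of replicate 2 was nearly all Cd68 (61.0 TPM there, with no read in replicates 1 and 3). The other macrophage markers were highest in replicate 3, but some of them had at most 1 read in any library. The part of any of these in the members' levels was not tested.

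**Figure D3:**
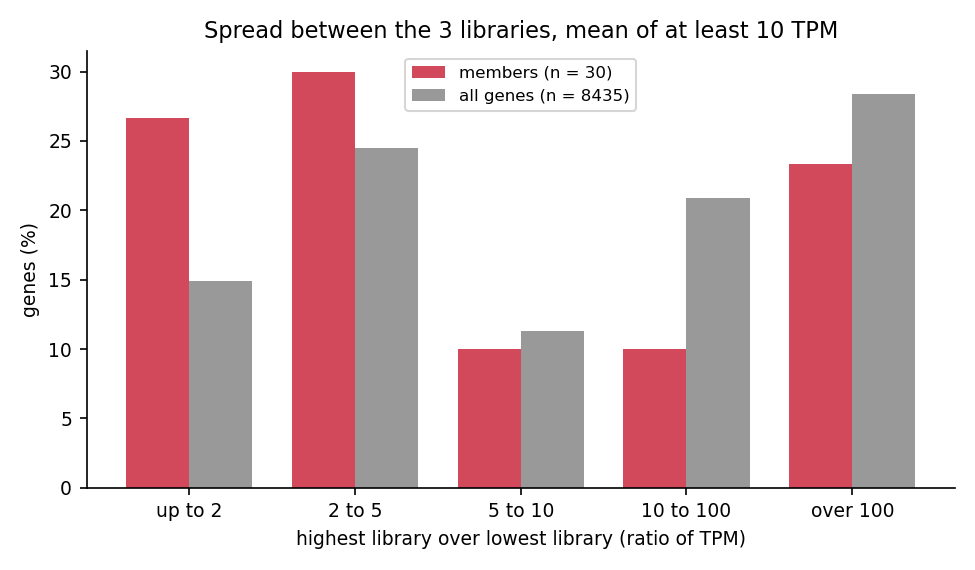
The share of genes, in percent, by the ratio of the highest to the lowest of the 3 libraries, for the 30 members and for all 8435 genes that averaged 10 TPM or more. Of the members 26.7% lay within 2-fold, against 14.9% of all genes, and 23.3% differed by over 100-fold, against 28.4%.

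Which of 2 related genes was higher was asked within each library, as the log2 ratio of TPM + 1, for 15 pairs. With 3 libraries the exact two-sided sign-flip test cannot go below p = 0.25, so no pair could pass the threshold, and the adjusted values ran from 0.375 to 1.0. In the pair of Loxl1 and Lox, Lox had no read and no ratio is given. Of the other 14 pairs the first named gene was higher in every library compared in 7, lower in every library in 3 and mixed in 4. Mfap5 was higher than Mfap2, but with at most 1 read of Mfap2 in a library the size of that ratio is set by the pseudocount. Smoc2 exceeded Smoc1 by 4.81 ± 3.32 on the log2 scale (SD, n = 3), Efemp1 exceeded Efemp2 by 4.21 ± 1.53 and Fbln2 exceeded Fbln1 by 4.07 ± 2.43. The ratio of Smoc2 to Smoc1 in replicate 2 (8.02) and of Fbln2 to Fbln1 in replicate 1 (6.02) each rest on 1 read of the lower gene. Their size therefore also depends on the pseudocount. Smaller gaps in the same direction in every library were seen for Pcolce over Pcolce2 (3.10 ± 1.44), Ltbp4 over Ltbp2 (2.34 ± 1.90) and Fbln5 over Efemp2 (1.96 ± 1.47). Pcolce2 and Ltbp2 had few reads, so the pseudocount weighs on those gaps too. Ltbp3 was lower than Ltbp1 in every library, with a ratio of -0.98 ± 0.29, and Sparc was lower than Sparcl1, with -0.89 ± 0.32. Loxl2 was lower than Loxl3 in both libraries with a read of either. The pairs Fbn1 and Fbn2, Emilin1 and Emilin2, Thbs2 and Thbs1, and Thbs4 and Thbs3 changed order between libraries. In replicates 1 and 3 the order of Emilin1 and Emilin2 rests on a few reads.

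**Figure D4:**
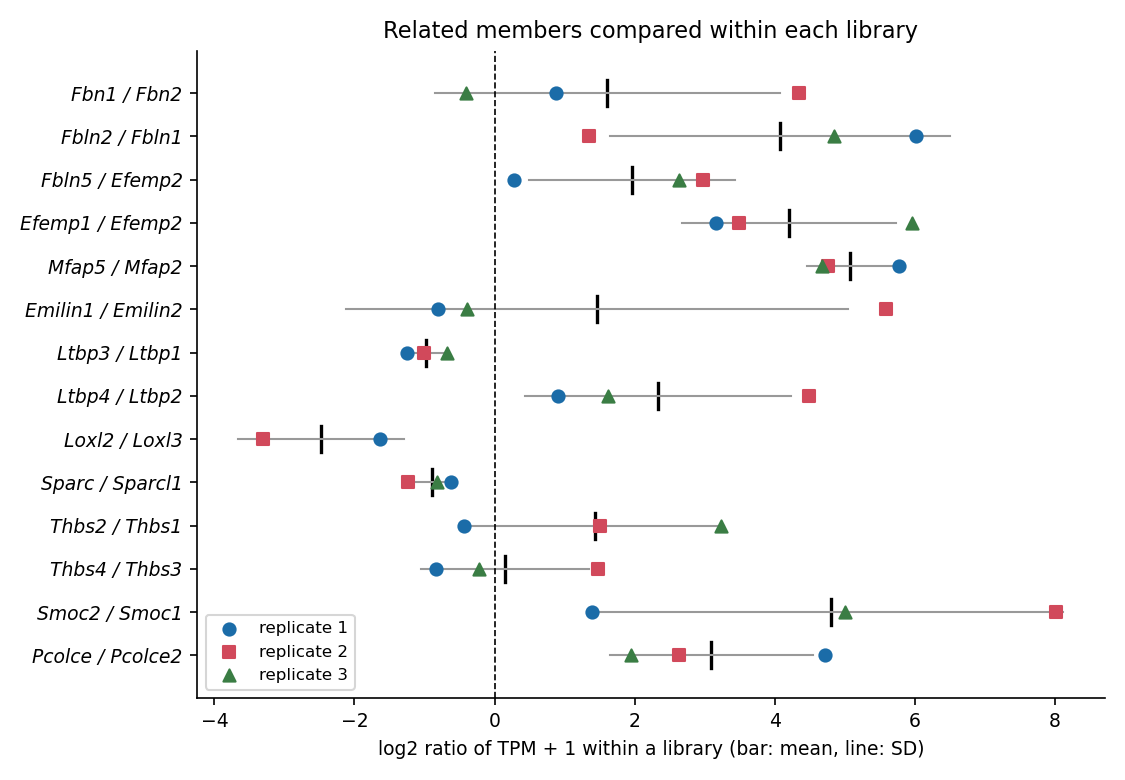
The log2 ratio of TPM + 1 of the first to the second gene of each pair within each library, with the mean as a black bar and the SD as a grey line, for 14 pairs (Loxl1 over Lox left out). Points right of the dashed line at 0 mean that the first gene was higher. Ltbp3 over Ltbp1 and Sparc over Sparcl1 lie close together on the left, and Smoc2 over Smoc1 spreads widely on the right.

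The partners of these proteins were taken from 4 lists of related genes. Of 22 genes listed as assembly partners of elastic fibres 20 had a read and 2 had none. Of the 20, 6 (30.0%) were called above 1 TPM and 1 below, against 16.3% and 14.1% of all genes tested. The list is wide and also holds relatives of the members and other matrix genes, so its count does not measure elastic fibre assembly. The genes called above 1 TPM were led by Pxdn, a peroxidase that crosslinks collagen of basement membranes, at 184, 186 and 78.6 TPM. Mfap3l (140.3, 69.9 and 15.4 TPM) came next, followed by Atp7a, the copper transporter that supplies the lysyl oxidases, at 14.6, 63.6 and 18.5 TPM. Mmrn2, a multimerin related to the emilins, had 5.50, 37.7 and 23.1 TPM, and Hmcn1, a hemicentin, had 29.8, 16.1 and 17.0 TPM. Pxdn, Atp7a and Mmrn2 were highest in replicate 2, and Mfap3l and Hmcn1 in replicate 1.

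Of 23 other matricellular and linker genes 22 had a read, of which 5 (22.7%) were called above 1 TPM and 5 below, shares near the 16.3% and 14.1% of all genes tested. Fstl1, a secreted glycoprotein with a SPARC-like domain, was highest by mean at 646, 547 and 492 TPM (adjusted p = 0.00337). Igfbp7, at 249, 589.6 and 743 TPM, was higher than Fstl1 in replicates 2 and 3. Cyr61 and Ctgf, both of the CCN family of integrin ligands, had 237, 140.0 and 17.0 TPM and 45.9, 20.7 and 46.9 TPM. Ecm2, a matrix protein with leucine-rich repeats, had 141, 83.4 and 109 TPM.

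Of 17 receptors for these proteins 16 had a read, and 8 of the 16 were called above 1 TPM, against 16.3% of all genes tested. None of the 16 was called below by limma, against 14.1% of all genes tested, and the receptor with no read was not tested. None was below at an unadjusted p under 0.05 either. With a mean-variance trend none was called below, where 9657 of all 27402 genes were. With so few genes a count of 0 is not read as a trait of the receptors. Sdc4, a heparan sulfate proteoglycan that binds fibronectin, had 1378, 1587 and 1301 TPM (adjusted p = 0.00337). Itgb8 had 759.8, 484 and 613 TPM and Itgav had 253, 362 and 302 TPM (adjusted p = 0.00337 each). These genes encode the chains of an integrin that binds the Arg-Gly-Asp site of some, not all, latent forms of TGF-beta. Itgb1, the chain shared by many fibronectin and collagen receptors, had 249, 225 and 415 TPM, and Cd47, a thrombospondin receptor, had 76.1, 36.4 and 191 TPM. Among the 13 members with Arg-Gly-Asp codons, 7 were called above 1 TPM (among them Spp1, Fbln5, Fn1, Fbn1, Mfap5 and Thbs4), 1 below, and 5 neither, a share close to that of the members as a whole (19 of the 39 tested).

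Of 10 genes for TGF-beta ligands, receptors and SMAD proteins, 9 had a read and 1 had none. Of the 9, 4 (44.4%) were called above 1 TPM and 1 below, against 16.3% and 14.1% of all genes tested. Tgfbr3, the co-receptor betaglycan, was even at 253, 256 and 245 TPM (adjusted p = 0.00337). The signalling receptors Tgfbr1 and Tgfbr2 had 58.2, 112 and 53.1 TPM and 14.7, 42.4 and 89.0 TPM. Tgfb2 was the ligand called above 1 TPM, with 31.3, 20.1 and 38.5 TPM (adjusted p = 0.00748). Tgfb1, named here after its values were seen, had a single read, in replicate 3, and was called below 1 TPM, and Tgfb3 had no read. Without replicate 3 the 4 lists together held 11 genes called above 1 TPM in place of 23, beside 2435 of all 27402 genes. Without replicate 1 or replicate 2 they held 0, with 22 and 20 above 1 TPM at an unadjusted p under 0.05. The share of all genes at that unadjusted p was not counted.

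**Figure D5:**
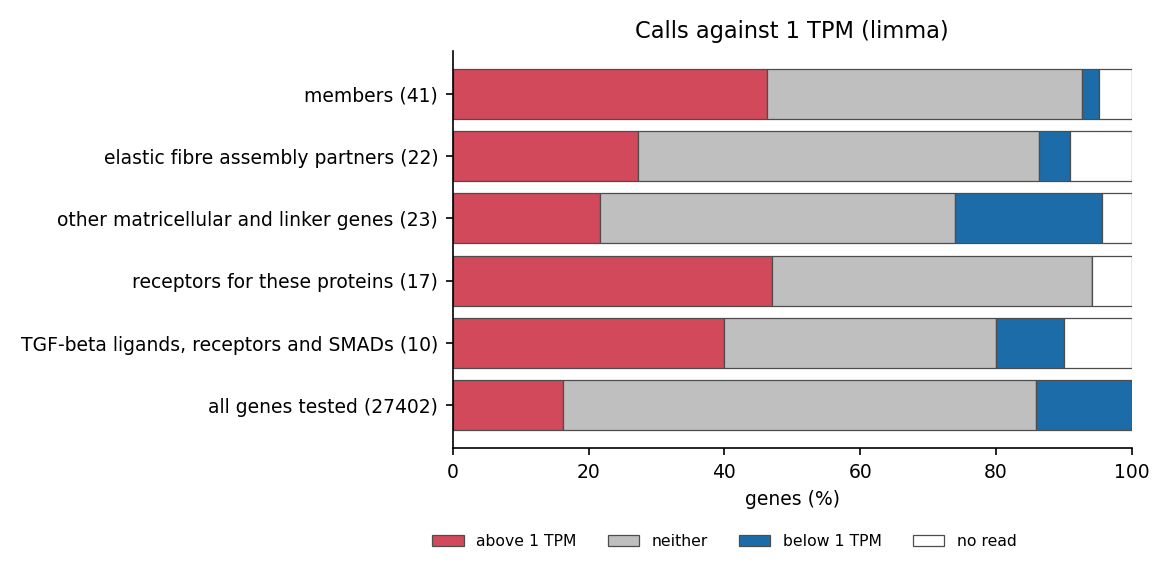
The share of genes, in percent, called by limma above 1 TPM, below 1 TPM or neither, and of genes with no read, for the 41 members, the 4 lists of partners (number of genes in brackets) and all 27402 genes tested. Of the members tested 19 of 39 were above, as were 8 of 16 receptors, against 16.3% of all genes tested.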

How the data were processed

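The deposited table holds log2 TPM values made by the authors, for 52550 genes in each of the 3 libraries of sorted LepR+ cells, and the linear values of a library sum to 1000000. STAR and featureCounts with the build mm10 (GRCm38) were used, per the submitters' processing notes. Not given in the sources used here are the tools' versions, the gene annotation, whether strand was used, and how counts became TPM. From the values, 0.25 read was added per gene, and whole reads were recovered for 52550 of 52550 genes (100.0%), 49791 with exon lengths of GENCODE M21 (within 0.02 read) and 2759 with a length solved from the values (within 1e-05 read, plus rounding). For 8 members the length was solved. Libraries carried no molecular identifiers, so the level of 3 reads covers counting error only.

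Tests used deposited TPM, not reads. The level of 1 TPM was the null value of limma's moderated test of mean log2(TPM + 1) (limma 3.58.1 and R 4.3.3, two-sided, with 1.19 prior degrees of freedom), over the 27402 genes with a read in any library, with Benjamini-Hochberg adjustment and a threshold of 0.05. The pseudocount shrinks differences of low genes, and many genes share an adjusted p near the threshold. The fit was also run on simulated normal values without the floor of the TPM data. That run does not show how often the calls made here are false. Pairs used an exact sign-flip test over libraries. Other work used Python 3.11.15, numpy 2.4.6, pandas 2.3.3, scipy 1.17.1 and matplotlib 3.10.9.

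The members, lists and pairs were chosen with earlier results of these data known, so none is independent support. Named were all 41 members, up to the 5 highest genes called above 1 TPM of each of 4 partner lists, and the 2 highest and those with no read of each of 7 marker lists. Some items of these lists and sequences are not reported here. Exceptions are Lepr and the genes said to be chosen after their values were seen. Alternatives tried were a pseudocount of 0.1 TPM, levels of 0.5 and 10 TPM, a filter on mean TPM of at least 0.5, a mean-variance trend, leaving out mitochondrially encoded genes (19.9% to 21.1% of TPM) and leaving out each library.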

Additional observations from a re-analysis of the deposited data

How the results depend on the processing

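No paired analysis was possible because the series holds 1 group. Depth limits genes of a few reads, and with 3 libraries calls near an adjusted p of 0.05 depend on the setting. The count of members above 1 TPM (19) was 14 to 23 at the other settings that kept all libraries, and 0 to 10 when a library was left out. The count below 1 TPM (1) was 0 with the level at 0.5 TPM, 9 with the level at 10 TPM, 0 with a mean of at least 0.5 TPM, 3 with a mean-variance trend, 0 without mitochondrially encoded genes and 0 to 1 when a library was left out, where the 1 is Mfap2 and not Mfap4. The partner lists' count above (23) was 15 at the level of 10 TPM and 0 to 11 when a library was left out, and that of the marker lists (21) was 0 to 14. Vtn, Fbn2 and Pcolce were called above with a pseudocount of 0.1 TPM and with the trend, Pcolce also with the filter on mean level, and the trend added Thbs2 and Thbs1. Against 10 TPM, mean differences on the log2 scale turned negative for Smoc1 (-0.22), Emilin1 (-1.37), Loxl3 (-0.92), Fbln1 (-0.66), Ltbp4 (-0.76), Loxl1 (-1.52), Ltbp3 (-0.15), Eln (-2.29), Tubb3 (-1.42), Cd68 (-1.40) and Lyz2 (-1.46), which the raised level itself produces. Against 0.5 TPM they turned positive for Loxl2 (0.30), Fbln7 (0.19), Prph (0.26), Pcolce2 (0.067) and Emilin2 (0.046). Eln was at -0.081 with a pseudocount of 0.1 TPM, a setting that gives its 0.116 TPM in replicate 3 more weight on the log2 scale. When a library was left out, signs turned with a range of -0.17 to 0.67 for Eln, -0.92 to 0.31 for Loxl2, -0.86 to 2.07 for Emilin1, -0.10 to 2.79 for Loxl3, -0.65 to 1.74 for Loxl1, -0.96 to 0.13 for Fbln7, -0.79 to 2.03 for Tubb3, -0.92 to 0.23 for Prph and -0.89 to 2.03 for Cd68. The ratio of Emilin1 over Emilin2 ranged from -0.60 to 2.60 and that of Thbs4 over Thbs3 from -0.53 to 0.63, both negative without replicate 2, and the other pairs kept their sign at the settings tried.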
